A study of Homo sapiens with 6 samples.

Results

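The miR-106b-25 and miR-106a-363 clusters were followed across 6 small RNA libraries of A549 cells. Members were the rows of the deposited miRNA table named hsa-miR-106b-5p, hsa-miR-106b-3p, hsa-miR-93-5p, hsa-miR-93-3p and hsa-miR-25-3p for the chromosome 7 cluster and hsa-miR-106a-5p, hsa-miR-18b-5p, hsa-miR-20b-5p and hsa-miR-363-3p for the X cluster. All 9 names had a row, out of 787 mature miRNAs listed. A549 is an established human line of epithelial origin from a lung adenocarcinoma. The control group (3 libraries) was transfected with pcDNA4 without an insert (empty vector), and the SMARCA4 group (3 libraries) with pcDNA4-SMARCA4, which the labels describe as restoring SMARCA4. SMARCA4, or BRG1, is an ATPase subunit of the SWI/SNF chromatin remodelling complex. RNA of both groups was taken 48 h after transfection with a lipid reagent, from cells of the same line in the same medium, and the share of cells that took up a plasmid is not stated. The design text calls the 3 libraries of each group independent biological replicates. Small RNA libraries hold no SMARCA4 mRNA, and the labels could not be tested on it. Below, the values of a group are listed in the order of its replicates 1, 2 and 3.

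Both clusters are paralogs of miR-17-92, a set of hairpins cut from one primary transcript that is known for promoting proliferation under the control of MYC and E2F factors. Each hairpin is processed by Drosha and Dicer into a duplex, of which one strand, the 5p or the 3p arm, is kept in Argonaute, while the other is usually degraded. The retained arm finds its targets mainly through its seed, bases 2 to 8, and the targets of the miR-17 seed include the mRNA of the cell cycle inhibitor CDKN1A. The miR-106b-25 hairpins lie together in an intron of MCM7, which encodes a subunit of the replicative helicase.

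The mature sequences are given because the members fall into few seed groups, which the comparisons below follow. They were read from RefSeq (GRCh38.p14), which held all 9, and are written 5′ to 3′ with the seed in capitals. The first group carries the miR-17 seed.
miR-93-5p: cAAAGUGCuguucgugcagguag
miR-106b-5p: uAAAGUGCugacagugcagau
miR-106a-5p: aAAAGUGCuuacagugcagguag
miR-20b-5p: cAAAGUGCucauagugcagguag
The miR-25 seed is carried by one member of each cluster.
miR-25-3p: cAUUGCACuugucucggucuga
miR-363-3p: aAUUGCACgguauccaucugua
The last members have seeds that no other member has.
miR-18b-5p: uAAGGUGCaucuagugcaguuag
miR-106b-3p: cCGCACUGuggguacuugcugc
miR-93-3p: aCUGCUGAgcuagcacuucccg
Same-seed relatives that are not members are shown for comparison, since reads of near-identical miRNAs can be assigned to either.
miR-17-5p: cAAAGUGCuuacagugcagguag
miR-20a-5p: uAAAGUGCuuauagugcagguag
miR-18a-5p: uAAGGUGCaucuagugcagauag
miR-92a-3p: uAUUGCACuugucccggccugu
miR-106a-5p differs from miR-17-5p by the single substitution A1C, and miR-18b-5p from miR-18a-5p by U20A, where the member's base comes first and positions count from 1 at the 5′ end. miR-20b-5p differs from miR-17-5p by 2 bases and from miR-20a-5p by 2 bases. miR-93-5p and miR-25-3p are further from their relatives, at 3 edits from miR-17-5p and 4 edits from miR-92a-3p. The sources used here do not say how reads matching more than one of these sequences were assigned.

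The hairpins of the chromosome 7 cluster lie within 515 bases on the minus strand of GRCh38 (GENCODE 29), in the order MIR106B (chr7:100093993-100094074), MIR93 (chr7:100093768-100093847) and MIR25 (chr7:100093560-100093643) along the direction of transcription, with 145 and 124 bases between them. All 3 sit in intron 13 of the principal MCM7 transcript MCM7-201, on the same strand. The hairpins of the X cluster that give members, from MIR106A (chrX:134170198-134170278) to MIR363 (chrX:134169378-134169452), span 901 bases of the minus strand, inside the non-coding transcript AC002407.1, whose annotated exons they overlap. MIR19B2 and MIR92A2 lie between them. The miR-106b hairpin (RefSeq, GRCh38.p14) is printed because its arms are compared below, with both arms in capitals, the 5p arm at bases 12 to 32 and the 3p arm at bases 52 to 73.
MIR106B: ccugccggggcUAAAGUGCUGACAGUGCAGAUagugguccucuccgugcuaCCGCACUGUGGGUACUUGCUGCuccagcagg

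Values are normalized read counts as deposited, in which all reads of a library carry the same weight. The read totals recovered from them ranged from 701885 to 1079944 in 5 libraries and came to 7274329 in SMARCA4 replicate 2, which is 8.33 times the mean of the others. Its normalized counts also summed to more, at 3073322 against 1661870 to 1835229 in the 5 other libraries. Results of members that rest on SMARCA4 replicate 2 are therefore given with and without it. A count of 0 allows up to 3 reads, worth 1.27 normalized counts for SMARCA4 replicate 2 and 4.91 to 7.84 elsewhere, and this limit covers counting error only. Of the epithelial marker miRNAs, 7 of 8 were listed, with a summed level of 599 to 863 in empty vector cells and of 727 to 914 with SMARCA4, and 2 of the 7, miR-141-3p and miR-203a-3p, passed the test and rose, beside the 0.942% of all miRNAs tested that rose. miR-200b-3p was the most abundant of them in the empty vector libraries. It was lower in every SMARCA4 library, at 186, 140 and 243 against 458, 285 and 523 normalized counts. Its log2 fold change of −1.14 missed the threshold (limma adjusted p = 0.109). Mesenchymal markers (4 of 5 listed) summed to at most 122, with miR-214-3p at 0 throughout, and endothelial ones (2 of 2) to between 746 and 1490, with none past the test in either list. These are RNA levels of whole cultures, in which fewer cells of a kind and less RNA per cell cannot be told apart.

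In every library the chromosome 7 members kept the order miR-25-3p, miR-93-5p, miR-106b-3p, miR-106b-5p, miR-93-3p. miR-25-3p ranked 24 to 34 among the 787 miRNAs and made up 60.2% to 71.1% of the cluster's summed level. miR-93-5p ranked 43 to 54, miR-106b-3p 57 to 101, miR-106b-5p 120 to 192 and miR-93-3p 223 to 383. Over the 6 libraries the levels of neighbours in this order did not overlap. The X cluster lay below, and in each library all of its members were under miR-93-3p. Small RNA ligation favours some ends over others, so levels of different miRNAs compare less well than levels of the same miRNA between libraries.

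**Figure D1:**
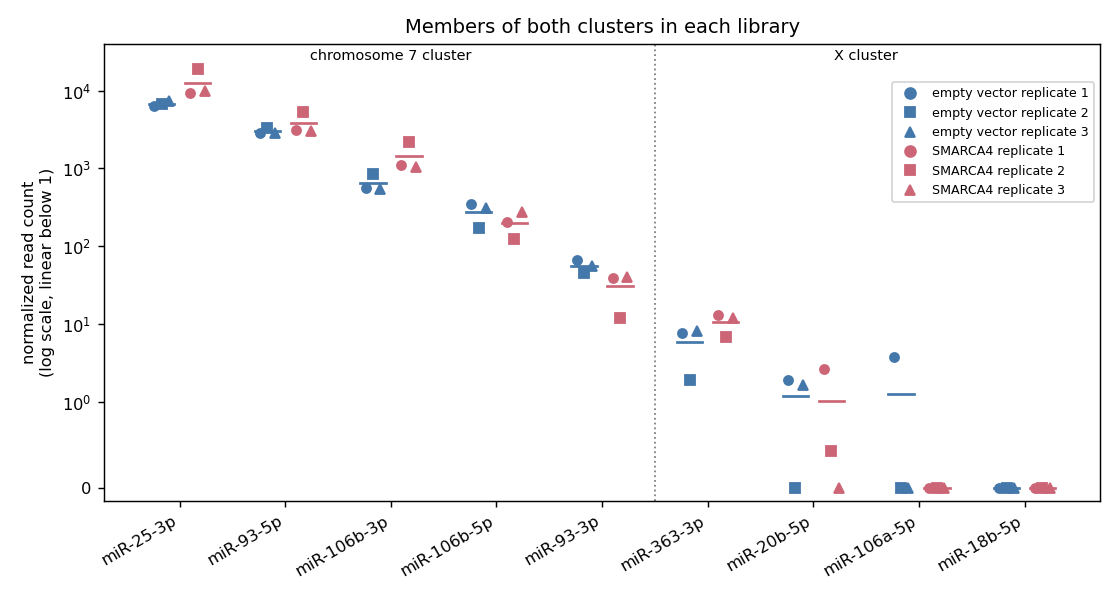
Normalized read count (log scale, linear below 1) of the 9 members in each library, with empty vector libraries in blue, SMARCA4 libraries in red, symbols for replicates and bars for group means (n = 3). The chromosome 7 members keep the same order in all 6 libraries, while miR-18b-5p is at 0 in all of them and miR-106a-5p in all but empty vector replicate 1.

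Of the 9 members, 7 had a mean of at least 1 normalized count and were tested with limma on log2(value + 1), together with all other miRNAs that passed this filter. None of the 7 changed with SMARCA4 at an adjusted p under 0.05, beside 1.41% of the 637 miRNAs tested (0.942% that rose and 0.471% that fell). At an unadjusted p under 0.05 there were 2 of 7, beside 22.6% of all, and edgeR and DESeq2 on the recovered reads also called 0 members. The median log2 fold change was 0.31 over the 7 and −0.05 over all miRNAs tested, and −0.017 and −0.31 with libraries rescaled to the same total. Both medians over the 7 are the values of miR-93-5p itself. The 7 include miR-20b-5p and miR-363-3p, which had only 4 and 36 reads in all. The groups of 3 did not overlap for 3 of the 7 members, namely miR-106b-3p and miR-25-3p, which were higher with SMARCA4, and miR-93-3p, which was lower, beside 31.1% of all miRNAs tested (15.9% higher and 15.2% lower).

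The arms of miR-106b stood on opposite sides. miR-106b-3p, the arm without the miR-17 seed, was at 556, 852 and 543 normalized counts with the empty vector and at 1111, 2205 and 1039 with SMARCA4. Every SMARCA4 library was above every empty vector library, and SMARCA4 replicate 2 was the highest. The means were 650 ± 175 and 1452 ± 654 (SD, n = 3 each), with a log2 fold change of 1.10 (SE 0.36, 95% interval 0.29 to 1.92, limma adjusted p = 0.113). Without SMARCA4 replicate 2 the log2 fold change of miR-106b-3p was 0.76 (limma adjusted p = 0.0963).

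miR-106b-5p, the arm that carries the miR-17 seed, was at 345, 169 and 311 normalized counts in the empty vector libraries and at 204, 125 and 274 in the SMARCA4 libraries. The groups overlapped, and replicate 2 was the lowest library of each. The means were 275 ± 93.2 and 201 ± 74.7 (SD, n = 3 each), with a log2 fold change of −0.46 (SE 0.41, 95% interval −1.38 to 0.46, limma adjusted p = 0.520). It ranged from −0.77 to −0.15 when each library was left out in turn. These values rest on 78 to 295 reads a library.

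miR-93-5p, the most abundant carrier of the miR-17 seed here, was at 2830, 3353 and 2843 normalized counts with the empty vector and at 3112, 5334 and 3079 with SMARCA4. SMARCA4 replicate 2 was well above the other 5 libraries, which all lay between 2830 and 3353. The means were 3009 ± 298 and 3841 ± 1293 (SD, n = 3 each), with a log2 fold change of 0.31 (SE 0.29, 95% interval −0.36 to 0.97, limma adjusted p = 0.553), which turned to −0.02 when libraries were rescaled to the same total and was 0.05 without SMARCA4 replicate 2. As a share of the library total miR-93-5p stayed between 0.161% and 0.189% in all 6 libraries, and SMARCA4 replicate 2 was inside this range at 0.174%.

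miR-93-3p, the scarce strand of the same hairpin, was at 66.0, 45.6 and 55.6 normalized counts with the empty vector and at 39.2, 11.8 and 40.1 with SMARCA4. The groups did not overlap, and SMARCA4 replicate 2 was the lowest by far. The means were 55.7 ± 10.2 and 30.4 ± 16.1 (SD, n = 3 each), with a log2 fold change of −1.02 (SE 0.52, 95% interval −2.20 to 0.16, limma adjusted p = 0.270). Without SMARCA4 replicate 2 it was −0.46. Only 15 to 35 reads a library stood behind miR-93-3p.

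miR-25-3p, whose seed is that of the miR-92 group, was at 6400, 6694 and 7378 normalized counts with the empty vector and at 9491, 18920 and 9798 with SMARCA4. All 3 SMARCA4 libraries were higher, and replicate 2 stood apart from the other SMARCA4 libraries. The means were 6824 ± 502 and 12737 ± 5357 (SD, n = 3 each), with a log2 fold change of 0.83 (SE 0.32, 95% interval 0.11 to 1.54, limma adjusted p = 0.170). Without SMARCA4 replicate 2 the log2 fold change of miR-25-3p was 0.50 (limma adjusted p = 0.127). As a share of the library total miR-25-3p was also higher in every SMARCA4 library, at 0.517%, 0.616% and 0.540% against 0.385%, 0.377% and 0.418%. By that measure the groups did not overlap for 30.6% of the miRNAs tested.

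**Figure D2:**
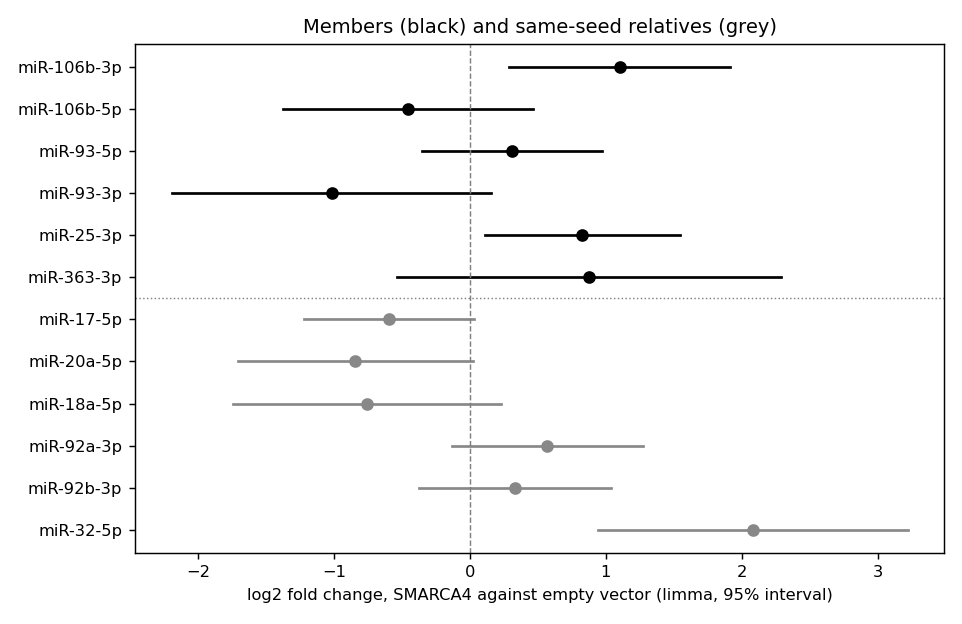
log2 fold change with SMARCA4 (x axis, limma, point and 95% interval, n = 3 libraries each) of the 6 members above the read limit, in black, and of relatives that share a seed with a member, in grey. The intervals of miR-106b-3p and miR-25-3p lie above 0, although neither passed the test after adjustment over all miRNAs.

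Summed over its 5 members, the chromosome 7 cluster made up 0.614%, 0.626% and 0.630% of the listed reads in the empty vector libraries and 0.761%, 0.865% and 0.785% in the SMARCA4 libraries. The 95% Wilson intervals, which cover counting error only since reads after PCR are not independent molecules, reached at most 0.0203 percentage points to either side. The SMARCA4 libraries were all higher, with means of 0.623% ± 0.00866 and 0.804% ± 0.0549 (SD, n = 3 each) and an exact two-sided permutation p of 0.1, the smallest that 3 against 3 allows. Adjusted over the 15 shares and ratios compared, this p was 0.167. The difference was 0.180 percentage points, and 0.149 without SMARCA4 replicate 2. miR-25-3p makes up most of this sum, so the sum follows it.

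Ratios between 2 miRNAs of a library depend little on the scaling between libraries. miR-25-3p stood at 2.26, 1.996 and 2.59 times miR-93-5p in the empty vector libraries and at 3.05, 3.55 and 3.18 times in the SMARCA4 libraries. The groups did not overlap, and the difference was 0.52 on the log2 scale (exact two-sided permutation p = 0.1, adjusted 0.167), or 0.46 without SMARCA4 replicate 2. The relation of miR-25-3p to miR-106b-5p was also higher on average with SMARCA4, by 1.28, but the groups overlapped (exact permutation p = 0.2, adjusted 0.25), and it was 0.65 without SMARCA4 replicate 2. The same held for miR-93-5p over miR-106b-5p, with a difference of 0.77 (exact permutation p = 0.4, adjusted 0.462) that was 0.20 without SMARCA4 replicate 2. miR-93-5p, from the neighbouring hairpin of the same intron, stood at 8.18 to 42.5 times miR-106b-5p over the 6 libraries.

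For miR-106b the 3p arm exceeded the 5p arm in all 6 libraries. The ratio was 1.61, 5.01 and 1.74 with the empty vector and 5.43, 17.6 and 3.78 with SMARCA4. Empty vector replicate 2 lay among the SMARCA4 libraries, so the groups overlapped. The log2 ratio was 1.27 ± 0.91 and 2.83 ± 1.16 (SD, n = 3 each), a difference of 1.56 (exact two-sided permutation p = 0.2, adjusted 0.25). Leaving out each library in turn gave 0.91 to 2.09, the lowest when SMARCA4 replicate 2 was dropped.

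The arms of miR-93 and miR-25 were compared after their values had been seen. The 3p arm of miR-93 was at 0.0237, 0.0139 and 0.0199 of its 5p arm with the empty vector and at 0.0129, 0.0024 and 0.0134 with SMARCA4. The groups did not overlap, with a log2 difference of −1.33 that was −0.51 without SMARCA4 replicate 2. miR-25-5p, the other arm of the miR-25 hairpin and not a member, was at 157 ± 37.6 and 197 ± 86.3 normalized counts (SD, n = 3 each). Its ratio to miR-25-3p was 0.0252, 0.0178 and 0.0263 with the empty vector and 0.0142, 0.0157 and 0.0167 with SMARCA4, lower in every SMARCA4 library by a mean of −0.56 on the log2 scale. Both comparisons had an exact two-sided permutation p of 0.1 and an adjusted p of 0.167.

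**Figure D3:**
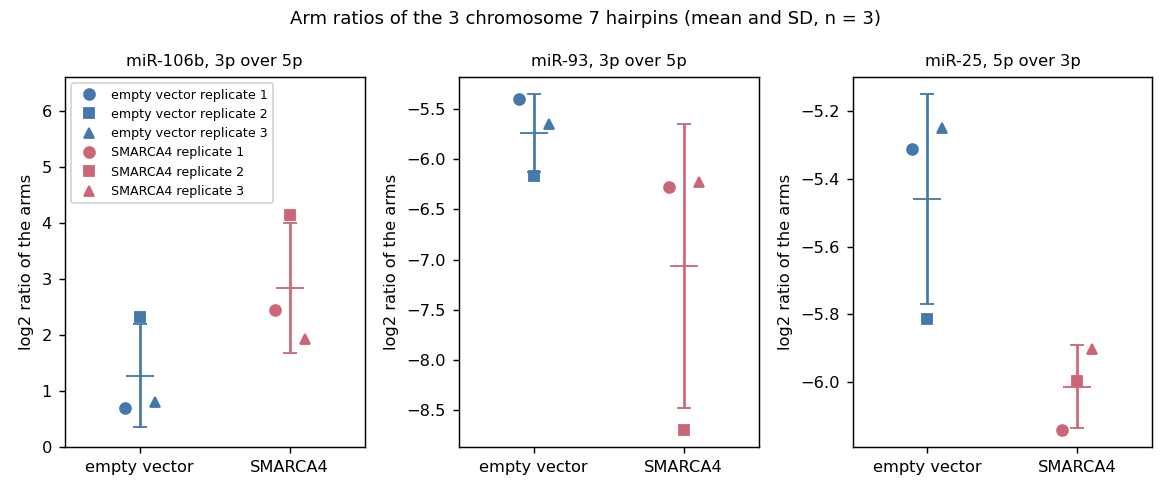
log2 ratio of the arms (y axis) in each library for miR-106b (3p over 5p), miR-93 (3p over 5p) and miR-25 (5p over 3p), with the group mean and SD (n = 3). The groups overlap for miR-106b through empty vector replicate 2, and do not overlap for miR-93 and miR-25.

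Arm ratios were then fitted with limma over all 97 hairpins whose arms both had a mean of at least 10 normalized counts, a comparison added after the data had been seen. The ratio changed for 16.5% of the hairpins, 6 towards the 3p arm and 10 towards the 5p arm, and the groups did not overlap for 42.3%. With both arms at a mean of at least 1 in place of 10, 5 of 155 hairpins passed. None of the 3 hairpins of the chromosome 7 cluster was among those that passed. miR-106b had the rank 8 by size of shift towards the 3p arm (log2 difference 1.56, SE 0.71, limma adjusted p = 0.179). The shift of miR-93 was −1.33 (limma adjusted p = 0.231) and that of miR-25 was 0.56 (limma adjusted p = 0.348). Dropping 1 library changed how many hairpins passed, to 0 (SMARCA4 replicate 3), 1 (empty vector replicate 1), 9 (empty vector replicate 2, and also replicate 3), 12 (SMARCA4 replicate 1) or 22 (SMARCA4 replicate 2).

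**Figure D4:**
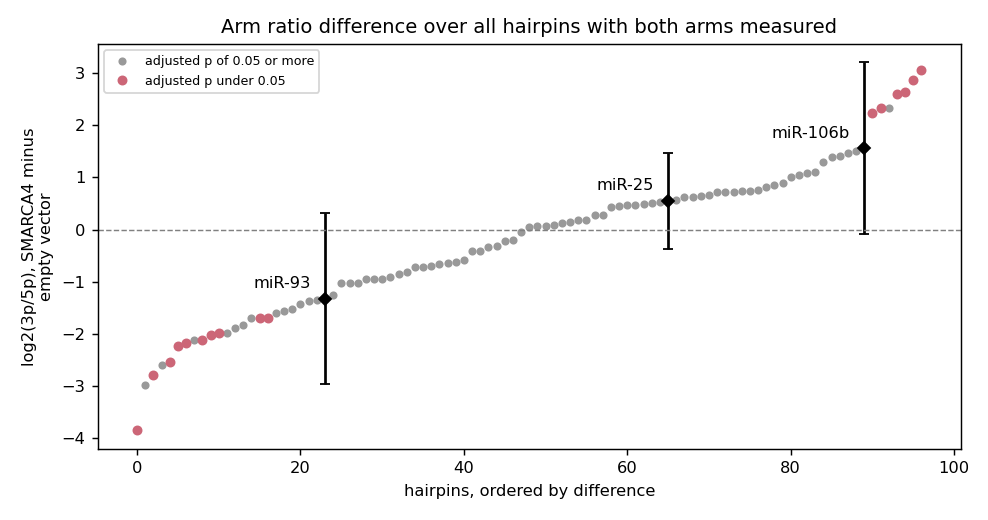
Difference of log2(3p/5p) between SMARCA4 and empty vector cells (y axis) for 97 hairpins in order of size (x axis), with hairpins past the test in red and the chromosome 7 cluster as black diamonds with 95% intervals. The intervals of miR-93, miR-25 and miR-106b all include 0.

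Within the miR-17 seed family, which these libraries measured through 6 of its 8 names, miR-93-5p was the main member in every library. It made up 58.8%, 65.9% and 55.5% of the family's summed level with the empty vector and 68.2%, 86.2% and 66.8% with SMARCA4, and the 95% Wilson intervals, for counting error only, reached at most 2.183 percentage points to either side. This share was compared after the data had been seen. The groups did not overlap, with means of 60.0% ± 5.30 and 73.7% ± 10.8 (SD, n = 3 each, exact two-sided permutation p = 0.1, adjusted 0.167). The difference of 13.7 percentage points was 7.44 without SMARCA4 replicate 2. miR-106b-5p held 2.01% to 7.17% of the family, and miR-106a-5p and miR-20b-5p each stayed under 0.1%.

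The same-seed relatives from miR-17-92 were lower in every SMARCA4 library than in any empty vector library. miR-17-5p was at 766, 607 and 844 normalized counts with the empty vector and at 463, 430 and 569 with SMARCA4, and miR-20a-5p at 867, 962 and 1127 against 784, 300 and 687. Neither passed the test (log2 fold changes −0.60 and −0.84, limma adjusted p = 0.232 and 0.226), with groups that did not overlap. miR-93-5p stood at 3.26, 3.48 and 2.52 times miR-20a-5p with the empty vector and at 3.96, 17.7 and 4.48 times with SMARCA4. That ratio was higher in every SMARCA4 library, by 1.15 on the log2 scale (exact two-sided permutation p = 0.1, adjusted 0.167), and by 0.46 without SMARCA4 replicate 2. The ratio to miR-17-5p overlapped between groups, at 3.69, 5.52 and 3.37 against 6.71, 12.4 and 5.40 times, with a log2 difference of 0.90 (exact permutation p = 0.2, adjusted 0.25) that was 0.56 without SMARCA4 replicate 2.

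For miR-106b-5p the relation to these relatives overlapped between groups. Its log2 ratio to miR-17-5p was −1.47 ± 0.35 and −1.34 ± 0.39, and that to miR-20a-5p was −1.89 ± 0.59 and −1.51 ± 0.37 (SD, n = 3 each). The differences were 0.14 and 0.39 (exact permutation p = 0.6 and 0.5, adjusted 0.6 and 0.536). The smallest p that this test can give for 3 against 3 libraries is 0.1.

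In the miR-25 seed family 5 of 6 names were listed. Each of the 5 had a log2 fold change above 0, beside 308 of the 637 miRNAs tested. All 5 were also above 0 with libraries rescaled to the same total. Of these, miR-32-5p and miR-363-3p rest on only 25 and 10 reads in the empty vector libraries. The median log2 fold change of the family was 0.83, the value of miR-25-3p itself, and 0.50 with that rescaling, and none passed the test. miR-25-3p was a minor member, at 8.56%, 9.76% and 9.08% of the family's level with the empty vector and 10.9%, 11.8% and 10.9% with SMARCA4. The groups did not overlap (exact two-sided permutation p = 0.1, adjusted 0.167), and the difference was 2.07 percentage points, or 1.75 without SMARCA4 replicate 2. This share, too, was compared after the data had been seen. miR-92a-3p made up 60.3% to 66.2% of the family and miR-92b-3p 23.3% to 30.6%. miR-92a-3p was at 46741 ± 1923 and 72361 ± 27192 normalized counts (SD, n = 3 each, log2 fold change 0.57, limma adjusted p = 0.305). Its SMARCA4 libraries were at 54789, 103682 and 58611, with replicate 2 the highest. The ratio of miR-25-3p to miR-92a-3p was 0.139, 0.148 and 0.151 with the empty vector and 0.173, 0.182 and 0.167 with SMARCA4, higher in all 3 SMARCA4 libraries by 0.26 on the log2 scale (exact two-sided permutation p = 0.1, adjusted 0.167). Without SMARCA4 replicate 2 this difference was 0.22.

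**Figure D5:**
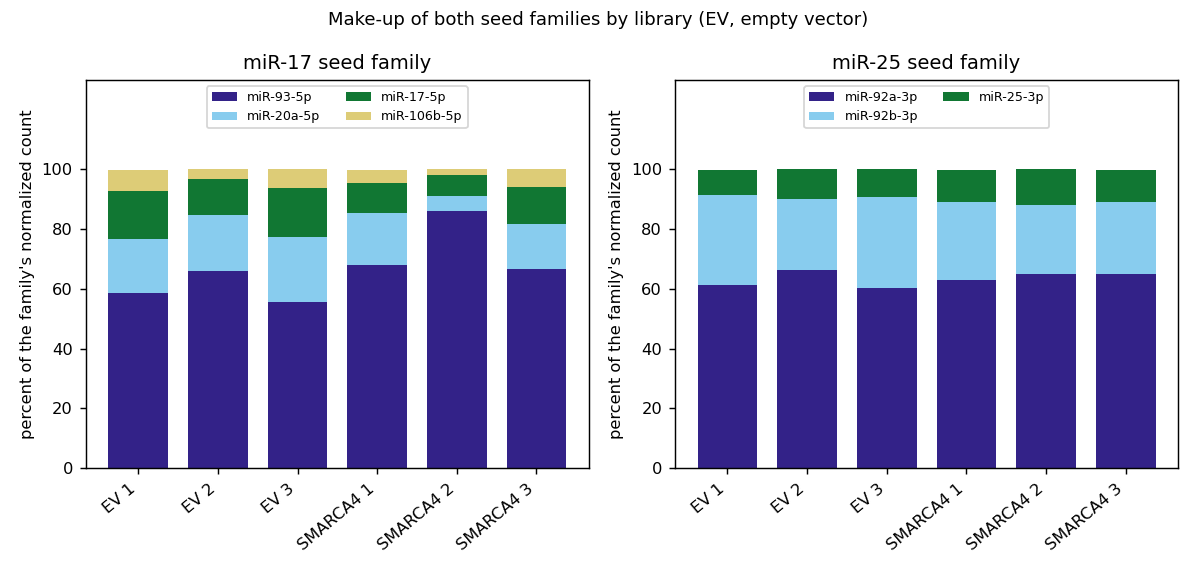
Percent of each seed family's summed normalized count (y axis) held by its members in each library (EV, empty vector), leaving out members under 1% in every library. miR-93-5p holds 55.5% to 86.2% of the miR-17 seed family, and miR-25-3p 8.56% to 11.8% of the miR-25 seed family.

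Against miR-17-92 as a whole, the chromosome 7 cluster stood at 0.209, 0.230 and 0.212 of the summed level with the empty vector and at 0.242, 0.251 and 0.231 with SMARCA4. The groups did not overlap, and the difference was 0.15 on the log2 scale (exact two-sided permutation p = 0.1, adjusted 0.167). Without SMARCA4 replicate 2 it was 0.125. miR-92a-3p was most of the miR-17-92 sum, at 103682 of 105832 in SMARCA4 replicate 2 and 45388.5 of 48269.7 in empty vector replicate 2. This ratio of sums therefore mostly follows miR-25-3p over miR-92a-3p. Of the 11 miR-17-92 names, 10 were tested, of which 5 were higher and 5 lower with SMARCA4 (2 and 8 with libraries rescaled to the same total) and none passed. The median log2 fold change was 0.06, and −0.26 with that rescaling. After miR-92a-3p its most abundant member by the mean over both groups was miR-19b-3p, at 751 ± 86.4 and 932 ± 87.7 normalized counts (SD, n = 3 each, limma adjusted p = 0.483). With the empty vector alone miR-20a-5p, at 985 ± 131, was above miR-19b-3p. miR-92a-3p and miR-19b-3p are also cut from MIR92A2 and MIR19B2 of the X cluster with the same mature sequence, so their reads cannot be told apart by origin.

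The X cluster was close to the limit of detection. miR-363-3p, its most abundant member, was at 7.54, 1.90 and 8.18 normalized counts with the empty vector and at 13.1, 6.76 and 11.8 with SMARCA4, from 10 and 26 reads in all. The groups overlapped (means 5.87 ± 3.45 and 10.5 ± 3.34, SD, n = 3 each, log2 fold change 0.87, SE 0.63, 95% interval −0.54 to 2.29, limma adjusted p = 0.427). miR-20b-5p had 4 reads, at most 1 in a library, in 2 libraries of each group. miR-106a-5p had 2 reads, both in empty vector replicate 1, and miR-18b-5p had 0 reads in all 6 libraries, while its 1-base relative miR-18a-5p was at 112 ± 17.7 and 71.1 ± 31.6 normalized counts (SD, n = 3 each). With at most 3 reads a library, no fold change is given for these 3 miRNAs. The other arms of these hairpins, miR-106a-3p, miR-18b-3p, miR-20b-3p and miR-363-5p, were at 0 in all libraries, as was miR-92a-2-5p, the 5p arm that marks MIR92A2. The corresponding arm of the chromosome 13 hairpin, miR-92a-1-5p, was at 47.2 to 164 normalized counts.

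Patterns most like those of the members were named by the Pearson correlation of log2(value + 1) over the 6 libraries, among 421 miRNAs with a mean of at least 10. These are descriptions over 6 libraries, of which SMARCA4 replicate 2 stands apart in depth. For miR-25-3p they were miR-221-3p (r = 0.994), miR-92a-3p (0.989) and miR-486-5p (0.987), and for miR-93-5p they were miR-320a (0.995), miR-27b-5p (0.993) and miR-99b-3p (0.982). miR-106b-3p was closest to miR-107 (0.994), miR-1307-3p (0.984) and miR-181d-5p (0.977), whereas miR-106b-5p was closest to miR-224-5p (0.991), miR-641 (0.971) and miR-15b-5p (0.971). miR-93-3p was closest to miR-18a-5p (0.996), miR-185-5p (0.972) and miR-376a-3p (0.969). The arms of miR-106b had an r of −0.86 with each other, and those of miR-93 an r of −0.97.

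Other miRNAs reported to respond to E2F factors were followed as a list, since MCM7 and miR-17-92 are E2F targets. None of its 7 members passed the test, with 4 higher, 3 lower (3 and 4 with libraries rescaled to the same total) and a median log2 fold change of 0.16, which was −0.17 with that rescaling. miR-16-5p was at 13830 ± 3669 and 15063 ± 1645 normalized counts, miR-15b-5p at 621 ± 132 and 466 ± 135 and miR-16-2-3p at 172 ± 18.5 and 252 ± 38.4 (SD, n = 3 each). Blood cell miRNAs were followed because miR-25-3p and miR-93-5p are abundant in red cells. Of 8 names 3 were listed, and 5, miR-451a among them, had no row among the miRNAs listed. The 3 had a summed level of 5621 to 7213 in empty vector cells and of 7962 to 14458 with SMARCA4. Nearly all of it was miR-486-5p, at 6359 ± 813 and 10094 ± 3752 (SD, n = 3 each, limma adjusted p = 0.257), while miR-142-5p and miR-150-5p made up the rest. The part of such RNA in the level of miR-25-3p was not tested.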

How the data were processed

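The 6 libraries, 3 per group, were prepared with Illumina's TruSeq small RNA chemistry, per the labels' protocols. The submitters' processing notes name bcl2fastq 2.18.0.12 and the build GRCh38. Aligner, counter, miRNA annotation and the handling of multiply matching reads: not given in the sources used here. The authors deposited a normalized signal per mature miRNA, named as TMM by the table. Every value was a whole multiple of its library's smallest value, within 1e-06 reads, so reads were recovered for 100% of values. Groups and replicate numbers come from sample titles.

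The main test was limma 3.58.1 (R 4.3.3) on log2(value + 1) with a mean-variance trend, over 637 miRNAs with a mean of at least 1, with p-values adjusted by the Benjamini-Hochberg method and called under 0.05. On that scale fold changes understate the change of scarce miRNAs. Ratios use the same pseudocount of 1. For shares and ratios the test was an exact two-sided permutation of the libraries, adjusted over 15 comparisons, of which 4 were added after the data were seen. These 4 were the arm ratios of miR-93 and miR-25 and both seed family shares. Arm ratios of 97 hairpins were fitted with limma without the trend. Alternatives were pseudocounts of 0.5 and 5, no filter, a mean of at least 10, other scalings, no trend, a replicate block, leaving out each library, and edgeR 4.0.16 and DESeq2 1.42.0 on recovered reads. The limma function was tested on simulated data. Members, lists and tests were chosen with earlier results of these data known. Named miRNAs are the members, any of a list that passed and up to 4 of its most abundant others, and for each member with a mean of at least 10 the 3 most correlated miRNAs; any other was chosen after its values were seen.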

Additional observations from a re-analysis of the deposited data

How the results depend on the processing

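None of the members was called under any of the 17 alternatives, for which the count of all called miRNAs was 9 in the reported fit, 23 without the filter, 44 by DESeq2 (with 212 adjusted p-values undefined) and 0 to 50 with 1 library left out (0 without empty vector replicate 1 or SMARCA4 replicate 3, 2 without empty vector replicate 3 or SMARCA4 replicate 1, and 50 without SMARCA4 replicate 2). The lowest adjusted p of a member was 0.0529, for miR-106b-3p with a replicate block. With libraries rescaled to the same total, the median over all miRNAs shifted by −0.26 on the log2 scale and the log2 fold change of miR-93-5p was −0.017, while the 5 other members given a fold change kept their sign in every alternative. The log2 ratio of miR-106b-5p to miR-17-5p turned its sign when empty vector replicate 2 (−0.043) or SMARCA4 replicate 3 (−0.0040) was left out, with a range of −0.043 to 0.36 over the libraries left out. The other 14 shares and ratios kept their direction. The cause of these differences was not tested. Replicate numbers came from titles alone, and same-numbered libraries deviated together with r = 0.0731, 0.0882 and 0.0136, where 5 of 6 libraries correlated best with their own number. Each of these r was under 0.1, the threshold set for pairing. The main fit had the group as its only factor and did not treat the libraries as pairs. Whether they were paired is not known from these values. With the replicate block 13 miRNAs were called in place of 9 and 23 hairpins in place of 16 had a changed arm ratio, with miR-106b among them (log2 difference 1.56, limma adjusted p = 0.0473). miR-93-3p and the X cluster rest on few reads, which limits their precision.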

Other observations

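Replicate 2 took the same place in both groups for several members, which was seen after the values were known. It had the lowest miR-106b-5p (169 and 125 normalized counts) and miR-93-3p (45.6 and 11.8) and the highest miR-106b-3p (852 and 2205) and miR-93-5p (3353 and 5334) of the empty vector and the SMARCA4 group. Empty vector replicates 1, 2 and 3 had 881370, 933753 and 1079944 reads, and SMARCA4 replicate 2 had 7274329. The part of read depth in this pattern was not tested.

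miR-32-5p, a same-seed relative of miR-25-3p from another locus, had the largest difference in the miR-25 seed family. It was at 26.4, 9.51 and 9.81 normalized counts with the empty vector and at 83.7, 49.4 and 54.3 with SMARCA4, so that the groups did not overlap (log2 fold change 2.08, SE 0.51, limma adjusted p = 0.0656). It passed the test without SMARCA4 replicate 2 (log2 fold change 2.23, limma adjusted p = 0.0326) and by DESeq2 (adjusted p = 0.0241), while the adjusted p over the other alternatives ranged up to 0.185.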
